A study of Arabidopsis thaliana with 50 samples.

Results

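Whole Arabidopsis seedlings of the Columbia-0 (Col-0) wild type that spent their last 24 h in complete darkness were compared with Col-0 seedlings kept in long days. The samples were chosen by their titles, as the 3 libraries of Col-0 in the dark and the 4 libraries of Col-0 in long days, which are 7 of the 50 samples of the series. The dark group was grown for 7 days in long days of 16 h light and 8 h dark and then moved to the dark for 24 h, so that it was collected at 8 days of age. The long-day group was collected at the same age without the dark period. Plants of every group were grown on medium with 1% sucrose, and each replicate pooled 5 seedlings. The study's methods say that its RNA-seq plants shared growth conditions and harvest time, without naming the dark and long-day sets. Since these sets may still differ in stock or batch, each comparison was also made against a second wild-type set in long days, called SDC:GFP wild type, with 4 libraries. It was derived from a cross of SDC:GFP in the ddc mutant with Col-0 and carries the SDC:GFP transgene. The same dark treatment in med12, a T-DNA mutant (cct-2) of the Mediator kinase module subunit MED12, was used as a further set that shares no library with either wild-type comparison. It has 3 libraries in the dark and 4 in long days. A group of 3 Col-0 libraries with the same dark period and then 15 min of light was part of the same fit.

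Light acts on seedlings both as a signal and as a source of energy. Phytochromes and cryptochromes remove the PIF transcription factors and stabilise the transcription factor HY5, so that darkness releases growth and shade genes and ends the activation of flavonoid and greening genes. Photosynthesis also supplies sugar, and leaves live on starch at night. When the starch is used up, plants enter carbon starvation, in which the kinase SnRK1 and bZIP factors switch on the DARK INDUCIBLE (DIN) genes and the breakdown of amino acids, protein, lipid and chlorophyll. The circadian clock runs on in the dark, and its genes have fixed hours of high and low expression.

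Several properties of the libraries bear on every result. In units of 1000000, the assigned counts of a library were between 6.21 and 6.53 in Col-0 dark, between 5.70 and 6.12 in Col-0 in long days and between 3.22 and 3.49 in SDC:GFP wild type. The 3 dark libraries differed by no more than sampling noise. Among 6847 features with up to 0.02 counts per exonic base, the chi-square per degree of freedom between pairs of dark libraries was between 0.889 and 0.995, against 1.21 to 1.57 between pairs of long-day Col-0 libraries. The study describes its replicates as independent biological samples, but with so small a spread between these libraries p-values may be too small, and counts of genes are also given with the dark libraries summed into 1. Duplicate removal kept 1 read per start position, which limits how many reads a gene can keep. Among genes of at least 300 exonic bases the highest value was 0.909 counts per exonic base, and 1924 genes of any length passed 0.4 in some library. Levels are given as CPM (counts per 1000000 counts of the scaled library). Among 1011 tested genes over 0.4 counts per base on average, the median log2 difference was 0.46 for the shallower SDC:GFP wild type minus Col-0, both in long days, and depth and stock cannot be told apart in it. Among the loci where the long-day Col-0 set stood apart from the dark set and from SDC:GFP wild type was 1 on chromosome 2. This locus was also silent or nearly so in SDC:GFP wild type and med12 in long days, without the dark period, and the cause was not tested. AT2G06845, annotated as a beta-galactosidase related protein on chromosome 2 (TAIR10.1, positions 2753443 to 2756008), had 0, 0 and 0.155 CPM in Col-0 dark, against 88.1, 83.9, 91.7 and 86.9 CPM in Col-0 in long days and 0 CPM in all 4 SDC:GFP libraries. In med12, AT2G06845 had 0 reads in the dark libraries and 1 read in the long-day libraries. AT2G05015, which overlaps it on the other strand, was at 0 counts in Col-0 dark, SDC:GFP wild type and both med12 sets, and at 8.02, 7.87, 10.6 and 7.65 CPM in Col-0 in long days, so it was at least 18.2-fold lower in the dark set, taking a floor of 3 counts per library. MED12 itself had 61.6, 69.4 and 65.1 CPM in med12 dark and 61.8 to 64.4 CPM in med12 in long days, against 191 to 202 CPM in Col-0 dark and 165 to 175 CPM in Col-0 in long days, as the labels say.

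In the dark, 2202 of 21567 tested genes and transposable elements (10.2%) were higher and 2307 (10.7%) lower than in Col-0 in long days, by edgeR's quasi-likelihood test with an adjusted p-value under 0.05 and a change beyond 1.5-fold. Against SDC:GFP wild type 4009 (18.6%) were higher and 4183 (19.4%) lower. This split was 4957 higher and 3386 lower when libraries were scaled by total counts alone, which gives a median log2 difference of all features of 0.13 in place of 0.02. With the dark libraries summed into 1, the counts were 2094 and 2204 against Col-0, of which 2028 and 2161 were also called with the libraries kept apart, and 3870 and 4245 against SDC:GFP wild type. The control sets themselves differed widely: 2535 features (11.8%) were higher and 2497 (11.6%) lower in SDC:GFP wild type than in Col-0, with both in long days, or 1866 and 3487 with total counts alone. A difference that appears against only 1 control set therefore cannot be told apart from a difference between stocks, sowings or harvests. The statements that follow rest on changes against both control sets, which share the 3 dark libraries: 1578 features (7.32%) were higher and 1671 (7.75%) lower against both. Large changes, of more than 4-fold, were 396 higher (1.84%) and 253 lower (1.17%) against Col-0 and 654 higher (3.03%) and 611 lower (2.83%) against SDC:GFP wild type. Against both sets 247 (1.15%) were higher and 204 (0.946%) lower by more than 4-fold. Another 122 features were called higher against Col-0 and lower against SDC:GFP wild type, and 48 the other way.

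**Figure D1:**
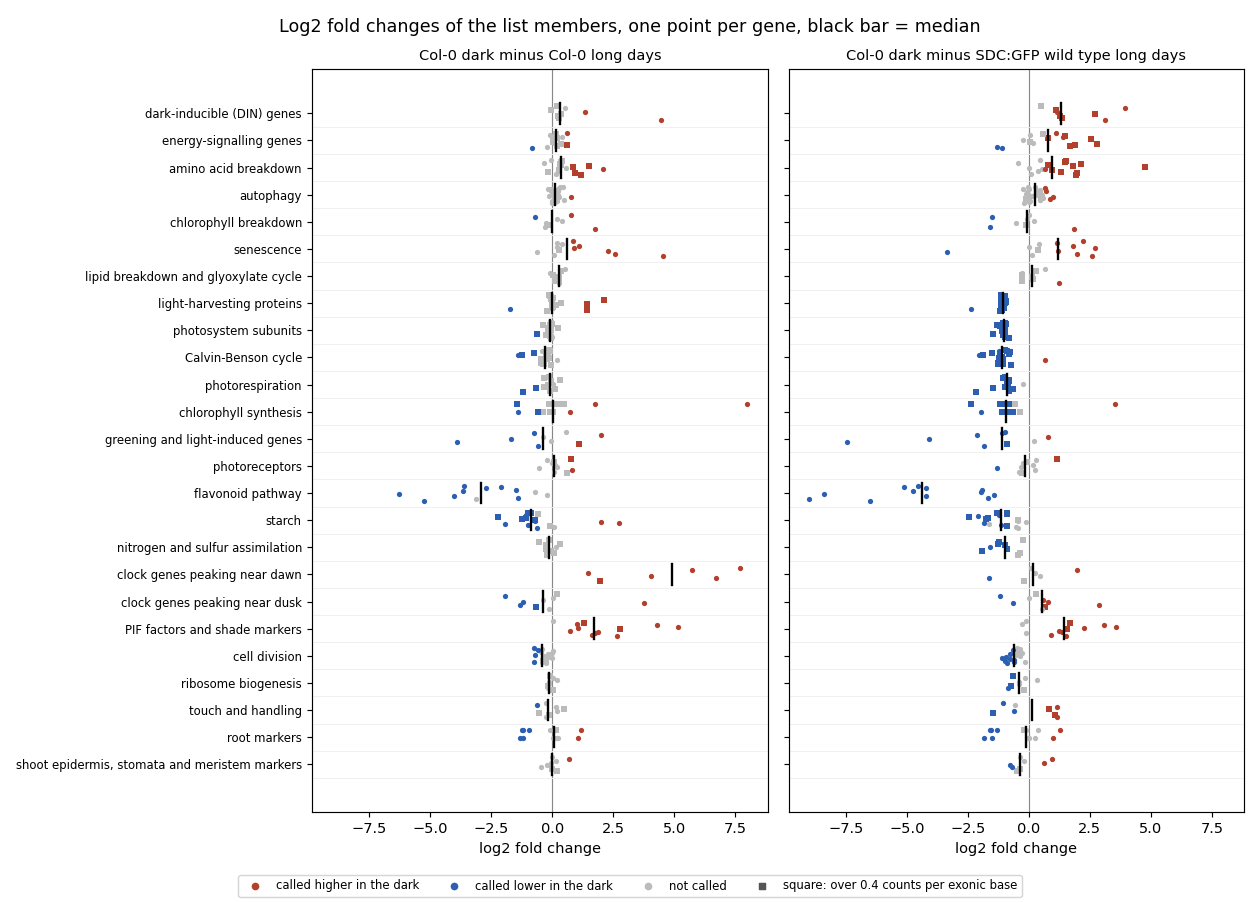
Log2 fold changes (x axis) of the tested members of 25 gene lists (rows), for Col-0 dark minus Col-0 in long days on the left and Col-0 dark minus SDC:GFP wild type on the right. Each point is a gene, red where called higher, blue where called lower and grey where neither, squares pass 0.4 counts per exonic base in some library, and black bars are medians. The flavonoid list lies left of 0 and the PIF and shade list right of 0 in both panels, whereas the light-harvesting and photosystem lists lie near 0 on the left and near -1 on the right.

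The clearest rise was in the genes that light holds down. Of 12 PIF factors and shade markers, 9 rose against both control sets and none fell, with a median log2 fold change of 1.69 against Col-0 and 1.44 against SDC:GFP wild type, beside -0.01 and 0.02 over all features. PIL1, a bHLH factor that is induced within minutes of shade, had 40.3, 44.8 and 43.9 CPM in the dark, against 0.872 to 1.49 CPM in Col-0 and 2.77 to 4.91 CPM in SDC:GFP wild type. The dark libraries stood far above all 8 long-day libraries, and the log2 fold change was 5.14 ± 0.16 (SE) against Col-0 and 3.56 ± 0.15 against SDC:GFP wild type (adjusted p = 2.32e-18 and 2.86e-16). IAA29, an Aux/IAA repressor of auxin response that PIFs activate, had 49.6, 52.5 and 48.7 CPM in the dark, against 2.28 to 2.79 CPM in Col-0 and 4.38 to 8.08 CPM in SDC:GFP wild type. It was higher by 4.3 ± 0.14 and 3.10 ± 0.14 on the log2 scale (adjusted p = 8.76e-18 and 1.57e-15). ATHB2, a homeodomain factor of shade avoidance, had 83.3, 79.9 and 81.0 CPM in the dark, against 8.37 to 13.7 CPM in Col-0 and 23.0 to 32.0 CPM in SDC:GFP wild type, a rise of 2.78 ± 0.08 and 1.56 ± 0.08.

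The other genes of this list followed with smaller steps. HFR1, a bHLH protein that restrains the PIFs, rose by 2.63 ± 0.09 and 1.52 ± 0.09 on the log2 scale. PAR1, another protein that limits shade growth, rose by 1.06 ± 0.09 and 2.26 ± 0.13. Growth genes were among them: IAA19 rose by 1.89 ± 0.11 and 1.36 ± 0.12, the cell wall enzyme gene XTH15 by 1.31 ± 0.06 and 1.69 ± 0.08, and YUC8, which makes auxin, by 1.63 ± 0.17 and 0.91 ± 0.18, each with no dark library inside the range of the 8 long-day libraries. PIF3 rose by 0.72 ± 0.06 and 1.24 ± 0.08, whereas PIF1 did not pass the test in either comparison, at 0.01 ± 0.06 and -0.12 ± 0.07. PIF4 and PIF5 depended on the control: PIF5 had 141, 145 and 138 CPM in the dark, against 35.0 to 50.3 CPM in Col-0 and 147 to 159 CPM in SDC:GFP wild type. PIF4 likewise had 123, 127 and 127 CPM in the dark, against 58.3 to 68.7 CPM in Col-0 and 141 to 160 CPM in SDC:GFP wild type.

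PORA, which encodes the protochlorophyllide oxidoreductase of dark-grown seedlings and whose RNA light represses, behaved like PIL1. It had 48.5, 45.1 and 48.5 CPM in the dark, against 0 to 0.321 CPM in Col-0 and 2.69 to 5.91 CPM in SDC:GFP wild type. In counts this was 913 reads in the 3 dark libraries against 4 in the 4 Col-0 libraries, a ratio of 286 after scaling (95% exact interval 111 to 1050, counting error only, adjusted p = 2.59e-17). Against SDC:GFP wild type the log2 fold change was 3.55 ± 0.19 (adjusted p = 2.07e-14). Among 10 photoreceptor genes, PHYA, the phytochrome that accumulates in the dark, rose against both sets, with 424, 435 and 419 CPM in the dark, against 242 to 255 CPM in Col-0 and 182 to 209 CPM in SDC:GFP wild type. PHYB had a log2 fold change of 0.82 ± 0.05 against Col-0 and 0.24 ± 0.05 against SDC:GFP wild type, below the 1.5-fold threshold in the second. PHYC, PHYE, CRY1, CRY2 and UVR8 lay between -0.39 and 0.17 in both. In the whole list 1 gene was called lower against SDC:GFP wild type, where the lowest value was -1.31, and none was called lower against Col-0.

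**Figure D2:**
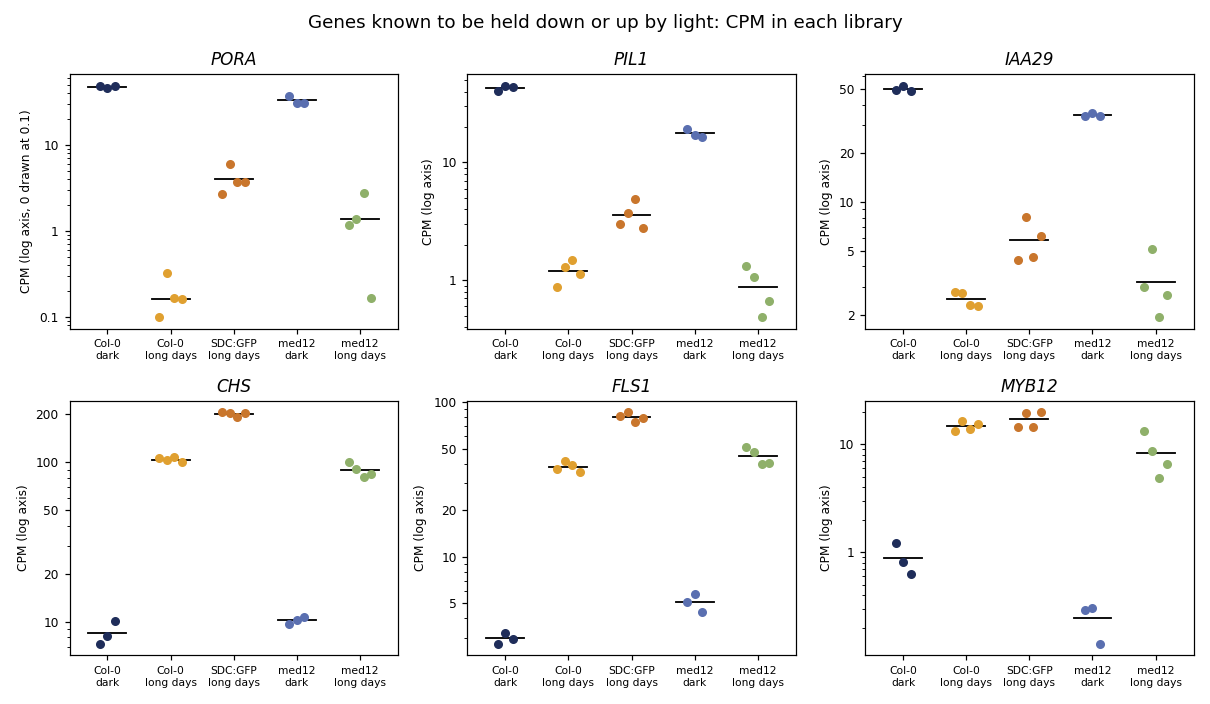
CPM on log axes of 6 light-controlled genes in each library (points) of the 5 groups on the x axis, with bars at the group means and a PORA value of 0 drawn at 0.1. PORA, PIL1 and IAA29 are higher in Col-0 dark than in all long-day libraries, up to 48.5 CPM against at most 5.91 CPM for PORA, and CHS, FLS1 and MYB12 are lower, and med12 dark lies on the same side as Col-0 dark for all 6.

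The flavonoid pathway showed the strongest fall of the 25 lists by its median. Of 13 members 12 were tested, 9 fell against both control sets and none rose, with a median log2 fold change of -2.93 against Col-0 and -4.40 against SDC:GFP wild type. The summed level of the list was 48.0 to 51.9 CPM in the dark, against 246 to 271 CPM in Col-0 and 550 to 577 CPM in SDC:GFP wild type. CHS, the chalcone synthase that opens the pathway, had 7.30, 8.19 and 10.1 CPM in the dark, against 101 to 108 CPM in Col-0 and 193 to 206 CPM in SDC:GFP wild type. It fell by 3.61 ± 0.10 and by 4.56 ± 0.09 on the log2 scale (adjusted p = 1.67e-19 and 3.31e-22). MYB12, the factor that activates CHS and flavonol genes, had 1.22, 0.803 and 0.620 CPM in the dark, against 13.3 to 16.4 CPM in Col-0 and 14.4 to 19.7 CPM in SDC:GFP wild type. Its log2 fold changes were -4.02 ± 0.31 and -4.23 ± 0.33 (adjusted p = 8.79e-11 and 2.20e-11), so for this gene the 2 control sets gave nearly the same size.

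Further down the pathway, FLS1, the flavonol synthase, had 2.74, 3.21 and 2.94 CPM in the dark, against 35.5 to 41.6 CPM in Col-0 and 74.2 to 86.1 CPM in SDC:GFP wild type, and F3H, which makes dihydroflavonols, had 3.80, 5.62 and 5.58 CPM, against 29.1 to 35.3 CPM in Col-0 and 85.9 to 101 CPM in SDC:GFP wild type. DFR, the first enzyme of the anthocyanin branch, had 0.608, 0.161 and 0.155 CPM in the dark, against 8.37 to 15.4 CPM in Col-0 and 16.6 to 47.8 CPM in SDC:GFP wild type. LDOX, which follows it, was close to absent from the dark libraries, with 1 read in all, against 139 in Col-0 and 316 in SDC:GFP wild type, a ratio of long days over dark of 111 (95% exact interval 19.6 to 4410) and 480 (85.4 to 19000). TT7 fell by 1.42 ± 0.18 and 1.69 ± 0.19, and MYB111, a relative of MYB12, by 1.49 ± 0.35 and 1.93 ± 0.36. The call of UF3GT, a flavonoid glycosyltransferase, was at the threshold against Col-0, with an adjusted p of 0.0475, and was lost with the dark libraries summed (adjusted p = 0.0774), which leaves 8 of the 13. CHI, the chalcone isomerase, did not follow against Col-0, with 22.8, 20.2 and 23.1 CPM in the dark and 23.0 to 27.8 CPM in Col-0, although it fell by 1.43 ± 0.11 against SDC:GFP wild type. PAP1, the MYB factor of anthocyanin synthesis, had 0 counts in the dark, at most 0.482 CPM in Col-0 and 5.28 to 17.5 CPM in SDC:GFP wild type, and so was at least 23.6-fold lower in the dark than in SDC:GFP wild type.

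The promoters of 4 genes that fell are shown because each holds the G-box, the letters CACGTG (the same on both strands), to which HY5 and the PIFs are known to bind. They are the 250 bases before the annotated start in the RefSeq genome TAIR10.1, written along the gene, with the G-box in capitals. CHS lies on the plus strand, at chr5:4488226-4488475, F3H on the plus strand, at chr3:19024942-19025191, DFR on the minus strand, at chr5:17166033-17166282, and MYB12 on the plus strand, at chr2:19476076-19476325.
CHS: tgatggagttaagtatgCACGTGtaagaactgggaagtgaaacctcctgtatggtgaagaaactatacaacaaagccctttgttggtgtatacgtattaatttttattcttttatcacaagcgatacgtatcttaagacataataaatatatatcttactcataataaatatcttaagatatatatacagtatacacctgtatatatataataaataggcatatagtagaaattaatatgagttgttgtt
F3H: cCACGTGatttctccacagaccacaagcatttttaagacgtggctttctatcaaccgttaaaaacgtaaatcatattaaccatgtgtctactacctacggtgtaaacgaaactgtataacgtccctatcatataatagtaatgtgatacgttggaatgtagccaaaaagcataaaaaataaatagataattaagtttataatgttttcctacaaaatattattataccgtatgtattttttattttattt
DFR: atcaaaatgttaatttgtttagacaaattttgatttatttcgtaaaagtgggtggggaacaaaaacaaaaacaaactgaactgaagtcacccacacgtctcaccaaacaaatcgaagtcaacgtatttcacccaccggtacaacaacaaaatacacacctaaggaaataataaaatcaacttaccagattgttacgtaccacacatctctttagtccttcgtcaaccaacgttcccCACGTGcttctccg
MYB12: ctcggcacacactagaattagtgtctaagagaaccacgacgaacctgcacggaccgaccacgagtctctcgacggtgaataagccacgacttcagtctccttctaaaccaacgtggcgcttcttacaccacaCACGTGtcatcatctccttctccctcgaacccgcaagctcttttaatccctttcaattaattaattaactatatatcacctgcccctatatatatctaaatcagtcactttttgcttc
The G-box begins 233 bases before the start in CHS, 249 in F3H, 14 in DFR and 118 in MYB12. It stood in 5 of the 12 promoters of the flavonoid list (41.7%), against 7.49% of 20701 promoters of tested protein-coding genes. Lists that did not fall held it too, with 5 of 6 dawn clock promoters (83.3%), 2 of 8 DIN promoters (25%) and 2 of 12 PIF and shade promoters (16.7%). In the starch list, where several genes fell, it stood in 1 of 17 (5.88%). Among all genes that changed by more than 4-fold against both control sets the shares were 9.09% of 220 higher and 9.79% of 194 lower promoters. A match in this window is a description of the sequence, and binding was not measured.

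Of 9 greening and light-induced genes, 4 fell against both control sets and none rose. HY5 had 14.7, 15.1 and 16.6 CPM in the dark, against 23.3 to 29.2 CPM in Col-0 and 33.0 to 34.2 CPM in SDC:GFP wild type, with log2 fold changes of -0.76 ± 0.08 and -1.11 ± 0.09. Its homologue HYH fell as well, by 0.60 ± 0.14 and 1.84 ± 0.14, at the edge of the 1.5-fold threshold against Col-0. ELIP1 and ELIP2, photoprotective proteins made under strong light, were low everywhere but lowest in the dark: ELIP2 had 0.760, 0.803 and 0.930 CPM, against 1.3 to 3.86 CPM in Col-0 and 11.7 to 17.6 CPM in SDC:GFP wild type. GLK2 and SIG5, regulators of chloroplast genes, were called in opposite directions. SIG5, for example, had 27.4, 25.2 and 28.2 CPM in the dark, against 6.28 to 7.23 CPM in Col-0 and 107 to 135 CPM in SDC:GFP wild type.

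Chlorophyll synthesis did not move as a block. Of 14 genes, PORA rose, 3 fell against both sets, and CAO and GUN4 were called in opposite directions. PORC, the light-induced relative of PORA, had 35.9, 36.6 and 37.3 CPM in the dark, against 94.5 to 103 CPM in Col-0 and 179 to 200 CPM in SDC:GFP wild type, with log2 fold changes of -1.44 ± 0.05 and -2.38 ± 0.05. DVR, a reductase of the same pathway, fell by 1.39 ± 0.05 and 1.97 ± 0.05. CHLG, the chlorophyll synthase, was at the threshold, at -0.59 ± 0.04 and -0.95 ± 0.05. The other genes, such as HEMA1, CHLH and PORB, had log2 fold changes between -0.40 and 0.46 against Col-0. Against SDC:GFP wild type 11 of the 14 genes were lower, with a median of -0.95, and 10 of the 14 passed 0.4 counts per exonic base.

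Genes of photosynthesis itself were read near the ceiling of these counts. Of 22 photosystem subunits 21 passed 0.4 counts per exonic base, and of 18 light-harvesting genes 17. The median log2 fold change of the photosystem list was -0.08 against Col-0 and -1.03 against SDC:GFP wild type, and that of the light-harvesting list -0.01 and -1.04. SDC:GFP wild type was above Col-0 for 22 of 22 and 18 of 18 of these genes, with medians of 0.91 and 1.03, and its libraries were shallower by 0.81 on the log2 scale. The part of depth in this difference was not tested. LHCB4.3, the light-harvesting gene of the list that stayed under the limit, was also the one that fell against both sets, with 10.6, 9.63 and 9.30 CPM in the dark, against 26.5 to 40.3 CPM in Col-0 and 46.6 to 58.2 CPM in SDC:GFP wild type. Of the photosystem genes, PSBS, which protects photosystem II by heat dissipation, fell against both sets, by 0.62 ± 0.04 and 1.48 ± 0.04.

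Among 20 genes of the Calvin-Benson cycle 3 fell against both sets, beside 7.75% of all tested features. For 18 of them every dark library was below the 8 long-day libraries, beside 21.8% of all tested features. Of the 20 genes 17 passed 0.4 counts per exonic base. RBCS1B, a small subunit of Rubisco that stayed under the limit of 0.4 counts per base, had 21.6, 22.8 and 22.0 CPM in the dark, against 55.4 to 61.2 CPM in Col-0 and 86.0 to 100 CPM in SDC:GFP wild type. It fell by 1.41 ± 0.06 and 2.03 ± 0.06 on the log2 scale (adjusted p = 7.82e-16 and 5.58e-19). CP12-2, a redox linker that silences the cycle in the dark, fell by 1.23 ± 0.05 and 1.88 ± 0.05, and HCEF1, a fructose-bisphosphatase, by 0.76 ± 0.04 and 1.5 ± 0.04. In photorespiration, GLDP1, a subunit of the glycine decarboxylase, had 174, 172 and 170 CPM in the dark, against 375 to 414 CPM in Col-0 and 740 to 810 CPM in SDC:GFP wild type, and SHM1, its partner enzyme, fell by 0.66 ± 0.04 and 1.45 ± 0.04. Other members, such as RBCS1A, RCA and PRK, lay between -0.14 and -0.23 against Col-0 and did not pass the 1.5-fold threshold there. No gene of nitrogen and sulfur assimilation (9 genes) was called in the same direction against both sets.

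The starvation genes gave a mixed picture that depended on the control. Of 8 DIN genes, BGLU30 and DIN9 rose against both sets, beside 7.32% of all tested features. BGLU30, a beta-glucosidase also called DIN2 or SRG2 that is a marker of sugar depletion, had 99.1, 97.4 and 99.8 CPM in the dark, against 4.02 to 5.23 CPM in Col-0 and 7.97 to 17.2 CPM in SDC:GFP wild type. The groups were far apart, by 4.45 ± 0.17 and 3.13 ± 0.17 on the log2 scale (adjusted p = 1.19e-16 and 2.79e-14). DIN9, a mannose-6-phosphate isomerase, had 29.2, 30.7 and 30.7 CPM in the dark, against 11.2 to 12.7 CPM in Col-0 and 11.8 to 15.5 CPM in SDC:GFP wild type, a rise of 1.34 ± 0.09 and 1.14 ± 0.10.

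The remaining DIN genes were already high in long-day Col-0. ASN1, the asparagine synthetase that is a classic dark gene, had 297, 305 and 298 CPM in the dark, against 224 to 248 CPM in Col-0 and 42.8 to 51.8 CPM in SDC:GFP wild type. Its log2 fold change was 0.36 ± 0.10 against Col-0, short of 1.5-fold, and 2.7 ± 0.16 against SDC:GFP wild type. DIN3 and DIN4, subunits of the branched-chain keto acid dehydrogenase, behaved alike, at 0.27 ± 0.07 and 0.22 ± 0.06 against Col-0 and 1.37 ± 0.11 and 1.29 ± 0.08 against SDC:GFP wild type. DIN10, a raffinose synthase, was at 351 to 362 CPM in the dark, against 353 to 388 CPM in Col-0 and 144 to 192 CPM in SDC:GFP wild type. DIN11, an oxygenase, had 31.5, 34.0 and 31.5 CPM in the dark, against 12.6 to 36.9 CPM in Col-0, whose libraries overlapped them, and 1.85 to 2.45 CPM in SDC:GFP wild type. SEN1 was not called in either comparison (0.19 ± 0.06 and 0.48 ± 0.08). Over the list, 2 of 8 were called against Col-0 and 7 of 8 against SDC:GFP wild type, while 5 of 8 were lower in SDC:GFP wild type than in Col-0 with both in long days. Of these 8 genes 5 passed 0.4 counts per exonic base.

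Of 15 energy-signalling genes, 2 rose and 1 fell against both sets, near the 7.32% higher and 7.75% lower of all tested features. BZIP1, the bZIP factor that SnRK1 activates in starvation, had 47.7, 49.6 and 51.0 CPM in the dark, against 30.2 to 33.9 CPM in Col-0 and 18.4 to 30.2 CPM in SDC:GFP wild type, with a rise of 0.62 ± 0.08 and 1.1 ± 0.10. TPS11, a trehalose phosphate synthase-like gene of the class that sugar represses, rose by 0.62 ± 0.08 and 1.90 ± 0.12. The rises of BZIP1 and TPS11 against Col-0 were near the threshold, and neither was called there in a test against 1.5-fold. BZIP11 fell, with 22.2, 23.0 and 22.6 CPM in the dark, against 39.0 to 41.2 CPM in Col-0 and 46.3 to 53.3 CPM in SDC:GFP wild type. BT2, a sugar-repressed scaffold protein, differed against SDC:GFP wild type alone, at 2.54 ± 0.10, and was at 0.04 ± 0.06 against Col-0. The SnRK1 catalytic subunits KIN10 and KIN11 were not called, at -0.08 ± 0.04 and 0.08 ± 0.04 against Col-0.

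**Figure D3:**
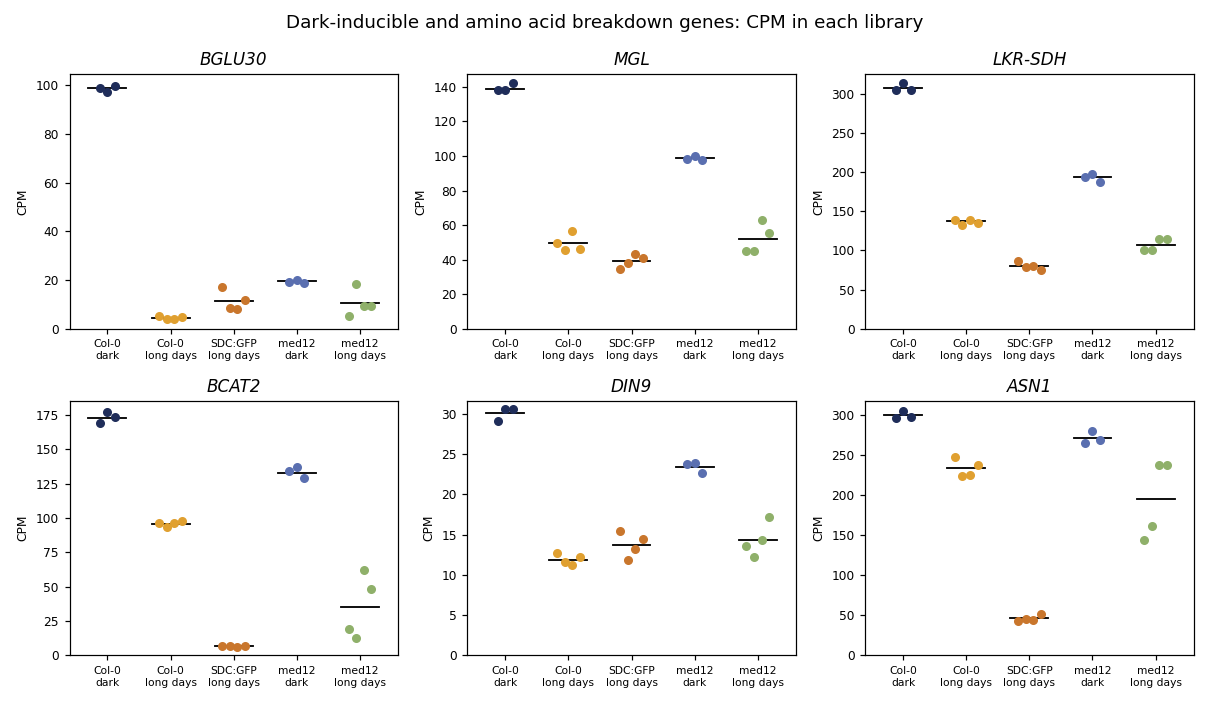
CPM on linear axes from 0 of 6 dark-inducible and amino acid breakdown genes in each library (points) of the 5 groups, with bars at the group means. BGLU30 and MGL separate Col-0 dark from both long-day wild-type sets, with 97.4 to 99.8 CPM against at most 17.2 CPM for BGLU30, whereas ASN1 is nearly as high in long-day Col-0, at 224 to 248 CPM, as in the dark.

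Of 17 genes of amino acid breakdown, 5 rose against both sets and none fell, and 13 had every dark library above the 8 long-day libraries, as had 22.1% of all tested features. The median log2 fold change was 0.34 against Col-0 and 0.93 against SDC:GFP wild type. MGL, the methionine gamma-lyase that starts the breakdown of methionine, had 138, 138 and 142 CPM in the dark, against 45.6 to 56.5 CPM in Col-0 and 34.7 to 43.2 CPM in SDC:GFP wild type, a rise of 1.49 ± 0.07 and 1.82 ± 0.09 (adjusted p = 3.94e-15 and 2.52e-15). LKR-SDH, the entry enzyme of lysine breakdown, had 305, 313 and 305 CPM in the dark, against 133 to 139 CPM in Col-0 and 75.2 to 85.9 CPM in SDC:GFP wild type. Neither control set overlapped the dark libraries for these genes. TAT7, a tyrosine aminotransferase, rose by 2.09 ± 0.06 and 0.66 ± 0.05.

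The branched-chain pathway was the more variable part of this list. BCAT2, the branched-chain aminotransferase of the chloroplast, had 169, 177 and 174 CPM in the dark, against 93.5 to 97.9 CPM in Col-0 and 6.13 to 6.53 CPM in SDC:GFP wild type. It was the member with the widest gap between the control sets, with log2 fold changes of 0.85 ± 0.15 and 4.76 ± 0.34. BCDH-E1A rose by 0.91 ± 0.09 and 1.99 ± 0.13. MCCA, MCCB and IVD, which act on leucine, were below 1.5-fold against Col-0, at 0.33 ± 0.08, 0.28 ± 0.06 and 0.39 ± 0.06, and above it against SDC:GFP wild type, at 2.14 ± 0.13, 0.93 ± 0.08 and 1.54 ± 0.09. PRODH1, the proline dehydrogenase, was at 204 to 206 CPM in the dark, against 217 to 244 CPM in Col-0 and 72.4 to 97.6 CPM in SDC:GFP wild type. Of the 17 genes 10 passed 0.4 counts per exonic base.

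Autophagy and lipid breakdown showed little. Of 29 autophagy genes ATG8B, which encodes a protein of the autophagosome membrane, rose against both sets, with 54.1, 50.6 and 51.8 CPM in the dark, against 29.4 to 31.7 CPM in Col-0 and 23.6 to 29.0 CPM in SDC:GFP wild type. The median of the list was 0.11 against Col-0 and 0.27 against SDC:GFP wild type, and 10 of the 29 had every dark library above the 8 long-day libraries, beside 22.1% of all tested features. None of 8 genes of lipid breakdown and the glyoxylate cycle was called against Col-0, and MLS, the malate synthase, alone was called against SDC:GFP wild type, at 1.23 ± 0.20.

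Of the 12 tested senescence genes 6 rose against both sets and none fell. ORE1, a NAC factor that promotes leaf senescence, had 54.7, 56.2 and 53.3 CPM in the dark, against 27.5 to 33.2 CPM in Col-0 and 10.8 to 13.2 CPM in SDC:GFP wild type. NAP, a further NAC factor of this kind, had 33.6, 35.5 and 33.5 CPM in the dark, against 5.46 to 10.1 CPM in Col-0 and 13.2 to 16.2 CPM in SDC:GFP wild type, so the order of the control sets was the reverse of that for ORE1. Both lay above all 8 long-day libraries (log2 fold changes of 0.84 ± 0.06 and 2.22 ± 0.09 for ORE1 and of 2.29 ± 0.12 and 1.21 ± 0.12 for NAP). NAC019, SAG13, WRKY53 and WRKY22, which also respond to stress and pathogens, made up the rest. WRKY22, for example, had 53.8, 50.9 and 52.4 CPM in the dark, against 24.9 to 34.0 CPM in Col-0 and 6.13 to 10.3 CPM in SDC:GFP wild type. SAG12, a protease of late senescence, had 0 counts in every library of the 5 groups, which allows up to 0.482 CPM in a dark library at a floor of 3 counts. SWEET15, a sugar exporter also called SAG29, had 3.34 to 6.42 CPM in the dark, against 5.41 to 10.1 CPM in Col-0 and 38.5 to 58.0 CPM in SDC:GFP wild type.

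Of 8 genes of chlorophyll breakdown, NYE2, which helps to remove magnesium from chlorophyll, rose, with 10, 8.67 and 9.61 CPM in the dark, against 1.98 to 3.53 CPM in Col-0 and 1.23 to 4.04 CPM in SDC:GFP wild type. ACD2, a reductase later in the same pathway, fell by 0.73 ± 0.06 and 1.51 ± 0.06. NYE1, the better expressed relative of NYE2, was called against Col-0 alone (0.75 ± 0.07, and 0.02 ± 0.07 against SDC:GFP wild type), and PAO was not called, at 0.20 ± 0.04 and -0.08 ± 0.04.

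Of 17 starch genes, 8 fell against both sets and none rose, with falls on the side of synthesis and of breakdown. Every dark library was below the 8 long-day libraries for 13 of them, beside 21.8% of all tested features, and the median log2 fold change was -0.86 against Col-0 and -1.15 against SDC:GFP wild type. On the side of synthesis, ADG1, the small subunit of ADP-glucose pyrophosphorylase, had 74.7, 70.8 and 71.9 CPM in the dark, against 165 to 178 CPM in Col-0 and 238 to 253 CPM in SDC:GFP wild type, a fall of 1.24 ± 0.04 and 1.76 ± 0.04 (adjusted p = 2.18e-18 and 4.79e-21). APL3, a large subunit of the same enzyme that sugar induces, had 12, 12.5 and 11.8 CPM, against 23.1 to 27.9 CPM in Col-0 and 45.8 to 58.0 CPM in SDC:GFP wild type. PGM1 fell by 0.86 ± 0.04 and 0.89 ± 0.04.

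On the side of breakdown, BAM3, the beta-amylase of the chloroplast, had 25.7, 26.2 and 26.3 CPM in the dark, against 112 to 131 CPM in Col-0 and 133 to 150 CPM in SDC:GFP wild type. This was the largest fall of the list against each control set, by 2.23 ± 0.09 and 2.45 ± 0.09. GWD1, the kinase that opens the granule to attack, had 196, 186 and 191 CPM in the dark, against 367 to 401 CPM in Col-0 and 465 to 476 CPM in SDC:GFP wild type. SEX4, the phosphatase that acts after it, fell by 0.98 ± 0.05 and 1.15 ± 0.05. The maltose exporter MEX1 fell by 1.06 ± 0.08 and 1.23 ± 0.09, and DPE2, which uses the maltose in the cytosol, by 1.06 ± 0.04 and 1.66 ± 0.04. GBSS1, the amylose synthase and a clock-driven gene, was called in opposite directions, with 44.9, 43.3 and 46.5 CPM in the dark, against 5.95 to 7.48 CPM in Col-0 and 145 to 182 CPM in SDC:GFP wild type. Many of these genes, as GBSS1, have a daily rhythm, and the hour of harvest is not given in the sources used here.

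The clock genes showed how far apart the control sets were. All 6 genes that peak near dawn were called higher in the dark than in Col-0 in long days, with a median log2 fold change of 4.90, whereas the median against SDC:GFP wild type was 0.17. CCA1, a MYB factor at the core of the clock, had 121, 126 and 125 CPM in the dark, against 0.330 to 0.964 CPM in Col-0 and 110 to 123 CPM in SDC:GFP wild type. The dark libraries thus overlapped SDC:GFP wild type and lay far from Col-0. LHY, the close relative of CCA1, had 112, 112 and 109 CPM in the dark, against 1.46 to 3.53 CPM in Col-0 and 26.8 to 31.0 CPM in SDC:GFP wild type, and was the dawn gene higher against both sets (5.73 ± 0.11 and 1.97 ± 0.07). PRR9, which follows them in the morning, had 19.8, 20.7 and 18.3 CPM in the dark, against 0 to 0.330 CPM in Col-0 and 59.1 to 64.7 CPM in SDC:GFP wild type.

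Of 9 genes that peak near dusk, 1 was called higher and 4 lower against Col-0, and 4 higher and 2 lower against SDC:GFP wild type. TOC1 had 125, 126 and 124 CPM in the dark, against 191 to 208 CPM in Col-0 and 76.1 to 82.6 CPM in SDC:GFP wild type. FKF1, a blue-light receptor of the evening, had 22.8, 23.3 and 23.6 CPM in the dark, against 49.1 to 58.3 CPM in Col-0 and 11.8 to 15.1 CPM in SDC:GFP wild type. In both cases the dark libraries lay between the control sets, as did GI, with 126, 130 and 124 CPM in the dark, against 6.77 to 12.5 CPM in Col-0 and 194 to 211 CPM in SDC:GFP wild type. TOC1, GI, BOA and FKF1 were called in opposite directions against the 2 sets, and ELF4, a part of the evening complex, was the member lower against both (-1.93 ± 0.07 and -1.19 ± 0.09). For clock genes and clock-driven genes, darkness and the hour of harvest cannot be told apart here.

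**Figure D4:**
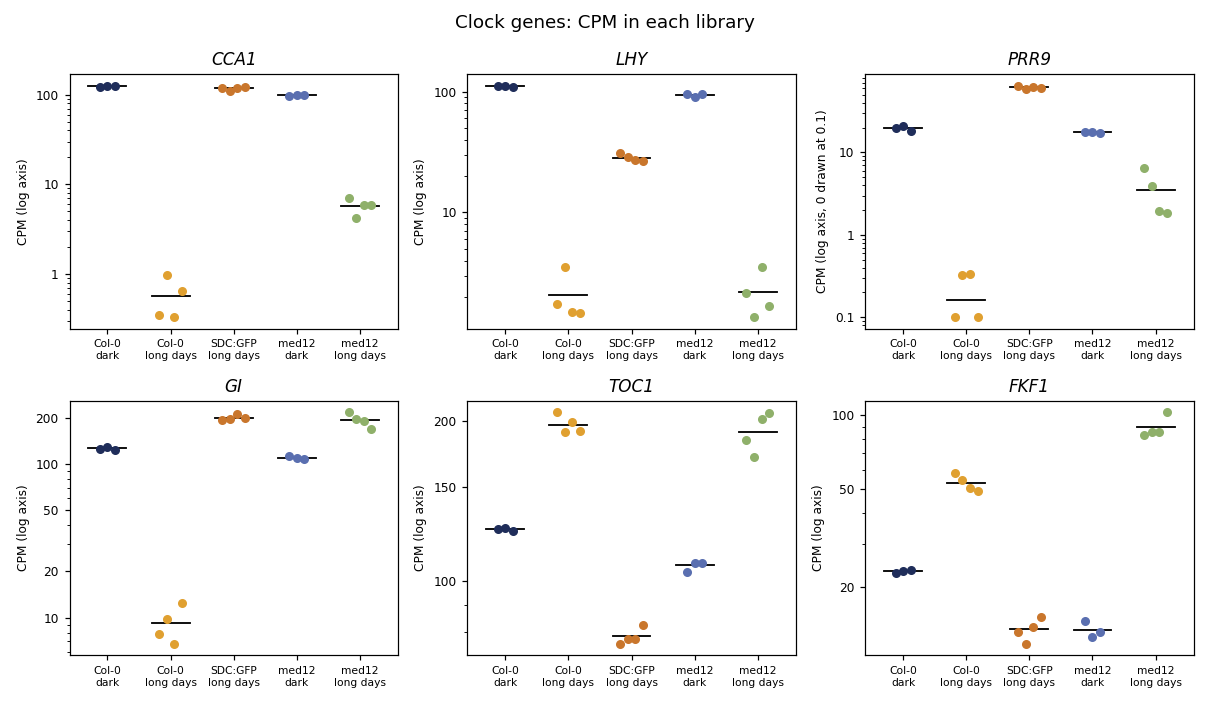
CPM on log axes of 6 clock genes in each library (points) of the 5 groups, with bars at the group means and PRR9 values of 0 drawn at 0.1. For CCA1, LHY and PRR9 the long-day Col-0 libraries lie below every other wild-type library, at most 3.53 CPM, and for GI, TOC1 and FKF1 the dark libraries lie between the long-day wild-type sets.

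By the rule for single genes, the 12 largest rises and 12 largest falls were taken among features with a change of more than 4-fold against both sets, no overlap between the 3 dark and the 8 long-day wild-type libraries, and an average level of 10 CPM or more where the feature was higher. Of the 247 and 204 features with a large change against both, 245 and 195 did not overlap (over all tested features, 22.1% had all dark libraries above and 21.8% had them below), and 88 and 103 also reached 10 CPM. The values that chose these genes are given as a description.

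The 12 genes with the largest rises had varied roles. CYP71A12, CYP71A13, CYP82C2 and AT1G26380 encode enzymes of the tryptophan-derived defence compounds of Arabidopsis, such as camalexin. CYP71A12 had 65.7, 63.4 and 61.7 CPM in the dark, against 0.330 to 1.61 CPM in Col-0 and 0 to 1.68 CPM in SDC:GFP wild type. CYP82C2 had 271 reads in the 3 dark libraries, against 1 in Col-0 and 1 in SDC:GFP wild type, a ratio of 340 (95% exact interval 60.5 to 13500) and 179 (31.8 to 7080). CYP71A13, a close relative next to CYP71A12 on chromosome 2, had 270 reads against 1 and 2, and reads that the pair share could be assigned to neither or to the wrong gene. AT1G26390, with AT1G26380 a member of a cluster of berberine-bridge oxidases, had 51.2, 49.3 and 49.4 CPM in the dark, against at most 0.482 CPM in either control set.

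Other genes of this group are known from stress and transport. ABCG40, an importer of abscisic acid, had 46.5, 40.9 and 38.3 CPM in the dark, against 0.174 to 1.45 CPM in Col-0 and 0.307 to 1.35 CPM in SDC:GFP wild type. AOX1D, an alternative oxidase of mitochondria, had 13.4, 12.7 and 15.5 CPM in the dark, against 0 to 0.643 CPM in Col-0 and 0 to 0.674 CPM in SDC:GFP wild type. The rest were CCOAMT, a caffeoyl-CoA methyltransferase, PCR1, a membrane protein of metal tolerance, PAP85, a seed storage protein of the cupin family, and AT1G62420 and AT5G39520, which the annotation describes by their domains alone. The Col-0 seedlings that had the same dark period and then 15 min of light showed these RNAs too, with for example 59.7 ± 2.11 CPM of CYP71A12, 55.1 ± 1.71 CPM of ABCG40 and 48.1 ± 2.47 CPM of AT1G26390 (SD, n = 3).

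Among the largest falls were LDOX and DFR of the flavonoid list and GSTF12, the glutathione transferase that carries anthocyanins to the vacuole, with 1 read in the dark, 123 in Col-0 and 317 in SDC:GFP wild type. AT5G33370, a GDSL lipase, had 0, 0 and 0.620 CPM in the dark, against 27.5 to 38.6 CPM in Col-0 and 25.2 to 46.0 CPM in SDC:GFP wild type. MES18, a methyl esterase, had 0.152, 0 and 0.155 CPM in the dark, against 14.1 to 20.2 CPM in Col-0 and 16.8 to 25.9 CPM in SDC:GFP wild type, a ratio of long days over dark of 168 (95% exact interval 46.3 to 1390) and 212 (58.3 to 1760). The control sets had overlapping levels for both of these genes. BAM6, a beta-amylase, and PIN5, an auxin carrier of the endoplasmic reticulum, were nearly silent in the dark too, with 2 and 3 reads, against 116 and 161 in Col-0 and 358 and 177 in SDC:GFP wild type. AT1G14250, a nucleoside phosphatase, had 0 to 0.310 CPM in the dark, against 16.7 to 20 CPM in Col-0 and 43.2 to 64.4 CPM in SDC:GFP wild type. The remaining falls were AT1G06100, a fatty acid desaturase family gene, AT1G31690, a copper amine oxidase, AT2G29170, an NAD(P)-binding oxidoreductase, and AT5G42760, a methyltransferase.

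**Figure D5:**
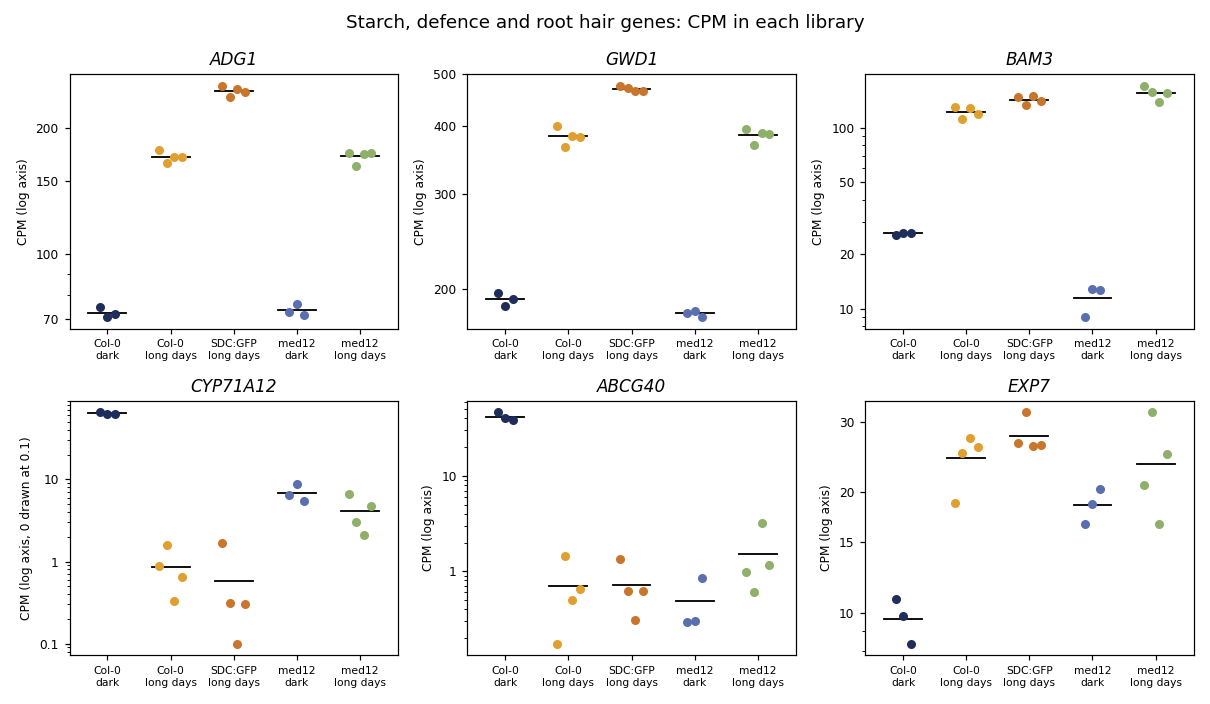
CPM on log axes of 3 starch genes, 2 defence or transport genes and a root hair gene in each library (points) of the 5 groups, with bars at the group means. ADG1, GWD1 and BAM3 are lower in both dark groups than in all long-day libraries, CYP71A12 and ABCG40 are highest in Col-0 dark among these 5 groups, with 61.7 to 65.7 CPM and 38.3 to 46.5 CPM, and EXP7 is lowest in Col-0 dark.

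Markers of organs were examined because a change in the share of root or shoot would move their genes together, and in whole seedlings fewer cells of a type and less RNA per cell cannot be told apart. The summed level of 14 root markers was 534 to 571 CPM in the dark, against 562 to 599 CPM in Col-0 and 633 to 662 CPM in SDC:GFP wild type, and that of 8 shoot epidermis, stomata and meristem markers 541 to 553 CPM, against 515 to 552 CPM and 667 to 686 CPM. All 5 root hair genes of the list fell: COBL9, EXP7, LRX1, PRP3 and ADF8 were lower against both sets. PRP3, a cell wall protein, had 21.9, 23.9 and 21.4 CPM in the dark, against 44.7 to 58.3 CPM in Col-0 and 78.0 to 83.1 CPM in SDC:GFP wild type. EXP7, an expansin, had 10.8, 9.79 and 8.37 CPM in the dark, against 18.8 to 27.4 CPM in Col-0 and 26.1 to 31.7 CPM in SDC:GFP wild type. CASP4 and CASP5, which build the Casparian strip of the root, rose, by 1.07 ± 0.11 and 1.00 ± 0.13 for CASP4 and 1.17 ± 0.14 and 1.28 ± 0.16 for CASP5. The root markers WER, SCR, SHR, CASP1 and CASP2 lay between -0.19 and 0.17 in both comparisons. STM, a meristem homeobox gene, rose by 0.69 ± 0.12 and 0.95 ± 0.15.

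The same 24 h of darkness was then read in med12, in libraries that share none with the wild-type comparisons. A difference in harvest hour or batch between dark and long-day sets, common to both genotypes, cannot be told apart from darkness here. In med12 dark, 1818 features (8.43%) were higher and 2388 (11.1%) lower than in med12 in long days. Of the 204 features with a large fall against both wild-type sets, 166 (81.4%, or 6.95% of the 2388) fell in med12 and none rose. Of the 247 with a large rise, 148 (59.9%, or 8.14% of the 1818) rose in med12 and 24 fell. Of all features called against both wild-type sets, 983 of 1578 higher ones (62.3%, and 54.1% of the 1818) and 1047 of 1671 lower ones (62.7%, and 43.8% of the 2388) were called in the same direction in med12.

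Light-controlled genes were also called in med12. CHS had 9.70, 10.2 and 10.7 CPM in med12 dark, against 81.0 to 101 CPM in med12 in long days, a fall of 3.13 ± 0.09. PIL1 rose by 4.29 ± 0.19, with 16.5 to 19.4 CPM in med12 dark, against 0.486 to 1.32 CPM. Among the lists, 10 of the 12 tested flavonoid genes fell and TT8 rose, 8 of 12 PIF and shade genes rose and none fell, and 11 of 17 starch genes fell and GBSS1 rose in med12. Of the photosystem genes none of the 22 was called in med12, with a median of -0.22, and of the light-harvesting genes 1 of 18 fell. MGL, LKR-SDH and BCAT2 rose in med12 too, by 0.93 ± 0.07, 0.85 ± 0.04 and 1.92 ± 0.19. Of the clock genes, 5 of 6 that peak near dawn were higher in med12 dark, with a median of 2.72. Of 9 that peak near dusk 7 were lower, with a median of -0.84.

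The difference between the dark effects of the 2 genotypes was tested directly, as the dark effect in med12 minus that in Col-0. It was above 1.5-fold with an adjusted p-value under 0.05 for 707 features (3.28%) upward and 1359 (6.30%) downward, or 460 and 1151 with the libraries of each dark group summed. Of the 12 PIF and shade genes, 5 had a smaller dark effect in med12. BGLU30 had 19.3, 20.2 and 18.8 CPM in med12 dark, against 5.30 to 18.4 CPM in med12 in long days, so that its rise was smaller by 3.60 ± 0.31 (adjusted p = 3.82e-09). Among the largest rises, CYP71A12 had 5.41 to 8.73 CPM in med12 dark, against 2.11 to 6.62 CPM in med12 in long days, and ABCG40 0.290 to 0.855 CPM, against 0.604 to 3.24 CPM. The differences were -5.42 ± 0.43 and -7.43 ± 0.68. Both genes were chosen for their rise in Col-0, which is the term subtracted here, so these values are a description. Of the 12 tested senescence genes 2 rose and 5 fell in the dark in med12, with a median log2 fold change of -0.11. SAG13, NAC019 and WRKY53 of this list were lower in the dark in med12, by 2.16 ± 0.57, 1.3 ± 0.43 and 1.28 ± 0.16. For the 5 root hair genes, which fell in Col-0, the dark effects were between 0.76 and 1.05 higher in med12. None of the 14 root markers was called lower in the dark in med12, where the lowest log2 fold change was -0.36. The med12 long-day libraries were the less uniform ones, with ASN1, for example, at 144, 161, 238 and 238 CPM, and this term uses Col-0, not SDC:GFP wild type, as the long-day control of the wild type.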

How the data were processed

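Whole seedlings were sequenced as single-end, stranded mRNA libraries. Per the labels and the study's methods, the authors trimmed reads with Trim Galore, aligned them with STAR to TAIR10, removed duplicates with Picard and counted reads per gene and transposable element with HTSeq 0.6.1 on Araport11. The deposited values are raw counts per feature, with no normalization. Rows that name no feature (no-feature reads were 2.35% to 5.03% of reads in the 3 wild-type groups) were left out of library sizes. Of 68527 features 21567 passed edgeR's filterByExpr by group.

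Counts of 21 libraries in 6 groups were fitted together by edgeR 4.0.16 (R 4.3.3, limma 3.58.1) with TMM scaling and the quasi-likelihood test, and p-values were adjusted over all tested features by Benjamini-Hochberg. A feature was called at an adjusted p-value under 0.05 with a change beyond 1.5-fold, and a large change lay beyond 4-fold. CPM give each count relative to 1000000 counts of its library after TMM scaling, and ± gives the SE of a log2 fold change. A floor of 3 counts per library, between 0.456 and 1.01 CPM in the wild-type groups, sets the bounds against groups at 0. Where a group had up to 3 counts in each library, ratios carry a 95% exact interval, which covers counting error only. Duplicate removal limits the counts that a gene of a given length can reach. The code was tested on simulated data.

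Alternatives were DESeq2 1.42.0, other scalings, no filter, fits of the compared groups alone, a test against 1.5-fold, a replicate block, SDC:GFP wild type as control and leaving out libraries. Leaving out genes over 0.4 counts per exonic base and summing the dark libraries were added after seeing the data. Named genes are the list members described, the 12 largest changes per direction, MED12, AT2G06845 and AT2G05015. The members, lists and rules were chosen with earlier results of these data known. Coordinates and promoters are from the RefSeq assembly TAIR10.1. The values of 1 root marker are not reported here.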

Additional observations from a re-analysis of the deposited data

Results flagged for a closer look

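In 41 genes and 3 long-day groups of 4 libraries, 6 values stood apart from the rest of their group by Dixon's test. Chance does this in about 1 of 20 groups, so a number of this size is near what chance gives. The values were those of Col-0 replicate 2 for SAG13 (0.964 CPM) and LHY (3.53 CPM), Col-0 replicate 4 for DVR (96 CPM), SDC:GFP wild type replicate 1 for RBCS1B (100 CPM) and replicate 2 for EXP7 (31.7 CPM), and med12 replicate 2 for ADG1 (163 CPM).

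The dark effect differed between med12 and Col-0 in edgeR's test of the difference for 25 of 35 genes whose dark effects are given. Over all tested features 3.28% differed upward and 6.30% downward. Some of the 35 genes were chosen for their change in Col-0, the term subtracted here, so the count is a description. As log2 differences, med12 minus Col-0, the light and starvation genes had -3.43 for PORA, -1.26 for ATHB2, -0.89 for IAA29, -3.6 for BGLU30, 1.07 for BCAT2 and -1.52 for BAM3. The clock genes had -3.58 for CCA1 and -4.58 for GI. The summed level of the dawn clock genes was 582 to 589 CPM in Col-0 dark and 511 to 516 CPM in med12 dark. In long days it was 72.5 to 94.6 CPM in Col-0 and 231 to 261 CPM in med12, so the long-day sets were further apart than the dark sets. Darkness and the hour of harvest cannot be told apart for these genes. The senescence genes had -3.88 for NAC019, -6.69 for SAG13 and -2.37 for WRKY53. The root hair genes had 0.76 for COBL9, 0.98 for EXP7, 1.05 for LRX1, 0.97 for PRP3 and 0.9 for ADF8. Among the largest rises the differences were -6.45 for AT1G26380, -3.62 for AT1G62420, -5.42 for CYP71A12, -3.56 for CCOAMT, -5.44 for PAP85, -7.43 for ABCG40, -7.47 for AOX1D and -3.89 for AT5G39520, and PIN5 among the falls had 4.29.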

How the results depend on the processing

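The hour of harvest is not given in the sources used here. The study's methods state a shared growth and harvest time without naming the dark and long-day sets. The dark libraries agree within sampling noise, so p-values may be too small. Depth limits genes near the floor, and the ceiling of duplicate removal limits those over 0.4 counts per exonic base. Without these genes, 1534 and 1590 features were higher and lower against both sets. DESeq2 called 625 features over 4-fold higher against Col-0. With no filter on low counts 701 were over 4-fold higher against Col-0 and 372 against both sets. With a test against 1.5-fold the counts higher and lower were 1249 and 1254 against Col-0, 1543 and 1108 for SDC:GFP wild type minus Col-0, 915 and 1394 in med12, 129 and 659 for the difference of dark effects, and 859 and 937 against both sets, with 2658 higher against SDC:GFP wild type. The test against 1.5-fold lost the calls against Col-0 of BZIP1, TPS11, BCAT2, CHLG, SHM1, HY5 and HYH. It also lost those of UF3GT, TOC1, PIF3, KNOLLE, CYCB1;3 and STM. With the dark libraries summed the difference of dark effects gave 460 features upward. Leaving out 1 library at a time gave 2115 to 2206 higher and 2216 to 2342 lower against Col-0, and 1511 to 1580 and 1606 to 1675 against both sets. Calls against Col-0 near the threshold were lost for CHLG without Col-0 dark replicate 1 or Col-0 replicate 3, for HYH without Col-0 dark replicate 2 or Col-0 replicate 1 or 3, for TPS11 without Col-0 replicate 2, and for UF3GT (edgeR adjusted p between 0.0628 and 0.162) without Col-0 dark replicate 1 or 2 or Col-0 replicate 2, 3 or 4.

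Replicate numbers did not pair the libraries, since same-numbered libraries had correlations of their deviations between -0.06 and 0.072. A replicate block gave 2189 higher and 2348 lower features against Col-0 and 4029 and 4234 against SDC:GFP wild type. With SDC:GFP wild type as the control these genes changed sign: DIN10 1.11, CAO -1.05, GUN4 -1.14, LHCB2.1 -1.05, LHCB2.2 -1.09, LHCB2.3 -1.15, SIG5 -2.13, GLK2 -0.90, GBSS1 -1.85, GPT2 -0.10, PRR9 -1.65, PRR7 -0.18, TOC1 0.67, GI -0.66, BOA 2.86, FKF1 0.78, PIF4 -0.27, PIF5 -0.13 and AT2G06845 1.77, and AT2G05015 had 0 counts in both groups. Of these genes, GPT2, PRR7, PIF4, PIF5 and AT2G06845 were not called against SDC:GFP wild type, and DIN10 was not called against Col-0. The AT2G06845 value rests on 1 read in the dark against 0 in SDC:GFP wild type. The cause of the changes in sign was not tested.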

Other observations

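Of 17 cell division genes, CYCB1;3, a mitotic cyclin, and KNOLLE, a syntaxin of the cell plate, fell against both sets and none rose. Over all tested features 7.75% fell against both sets, so this count is near that share. For 10 of the 17 genes every dark library was below the 8 long-day libraries, beside 21.8% of all tested features. KNOLLE was at the threshold against Col-0, at -0.59 on the log2 scale, and lost its call with DESeq2 (-0.58), with RLE size factors (-0.57), with the compared groups alone (-0.58), with a test against 1.5-fold, and without Col-0 dark replicate 2 (-0.54) or Col-0 replicate 3 (-0.56). CYCB1;3 had 15.8, 14.9 and 14.3 CPM in the dark, against 23.5 to 27.8 CPM in Col-0 and 20.3 to 24.9 CPM in SDC:GFP wild type. The replication genes MCM2, MCM5 and PCNA1 were not called against Col-0, at -0.16, -0.28 and -0.28 on the log2 scale.

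Of 8 touch and stress genes none was called in the same direction against both wild-type sets, and 7 were lower in med12 dark than in med12 in long days. WRKY40, a factor of early defence, had 6.37, 7.22 and 7.84 CPM in med12 dark, against 62.2 to 82.0 CPM in med12 in long days, and 13.1, 14.6 and 15.5 CPM in Col-0 dark, against 12.4 to 13.7 CPM in Col-0 in long days. Of the 8 genes of ribosome biogenesis none was called against Col-0 and 3 were lower against SDC:GFP wild type (median -0.39).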
